A study of Mus musculus with 24 samples.

Results

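Arrb2, Arhgap9, Acp5 and Oard1 are the 4 genes whose response to 6 h of T cell stimulation differed between wild type (WT) and Aim2-deficient CD4+ T cells in these data, out of 15325 genes tested, a share of 0.0261%. They were found by their symbols among the 54446 gene identifiers of the count table, and all 4 passed the filter on low counts. Messenger RNA was sequenced from CD4+ T cells taken from the spleens of 6 mice on a C57BL6 background, whose ages the labels do not give. WT mice carry the numbers 1, 3 and 4, and Aim2-deficient mice (genotype AIM2-/-, written Aim2-/- here) the numbers 1, 2 and 4. Cells of each mouse were sampled unstimulated (0 h) and after 3, 6 and 24 h with anti-CD3/CD28 in culture, which makes 24 libraries in 8 groups of 3. The mutation is constitutive, so the T cells came from animals deficient in other cells too. The general methods of the study were written for related experiments. They describe enrichment by negative selection for the stimulation of CD4+ T cells, and sorting for the experiments on AIM2 expression.

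The 4 genes act in separate processes. Arrb2 encodes beta-arrestin 2, an adaptor that binds phosphorylated G protein-coupled receptors, ends their coupling to G proteins and leads them into clathrin-coated pits; chemokine receptors of T cells are among its clients. Arhgap9 encodes a GTPase-activating protein of blood cells that switches off small GTPases such as Rac and Cdc42, the proteins that direct the actin skeleton. Acp5 encodes tartrate-resistant acid phosphatase, best known as an enzyme of osteoclasts and macrophages that acts on osteopontin. Oard1, also called TARG1, encodes a macrodomain hydrolase that removes ADP-ribose from acidic residues of proteins after PARP enzymes have attached it. Aim2, the gene disrupted in the mutant mice, encodes a cytosolic sensor of DNA.

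In the GRCm38 annotation Arrb2 (ENSMUSG00000060216) lies on the plus strand at chr11:70432635-70440828, and its longest transcript has 15 exons. Arhgap9 (ENSMUSG00000040345) lies on the plus strand at chr10:127321964-127329943 with 12 exons. Its end overlaps Gli1 on the opposite strand by 62 bases, and Gli1 had 0 to 17 counts in a library. Acp5 (ENSMUSG00000001348) lies on the minus strand at chr9:22126727-22135711 with 6 exons, inside an antisense transcript, 6530413G14Rik, that had 0 to 3 counts. Oard1 (ENSMUSG00000040771) lies on the plus strand at chr17:48410014-48417266 with 6 exons. It starts 107 bases from Nfya, which runs the other way and encodes a subunit of the CCAAT-binding factor NF-Y. Counts are per gene, so exons, introns and UTRs were not told apart, and whether the counting used strand is not stated.

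The stretch between the annotated starts of Nfya and Oard1, chr17:48409907-48410013 of GRCm38, plus strand, is shown because Oard1 and Nfya share it, and the levels of both are given with Oard1. For comparison the 250 bases before the outermost RefSeq start of Acp5, chr9:22135747-22135996, minus strand, are given, since the fold between the lowest and highest level was widest for Acp5. Capitals mark the GC box, GGGCGG, searched on both strands.
Oard1 and Nfya: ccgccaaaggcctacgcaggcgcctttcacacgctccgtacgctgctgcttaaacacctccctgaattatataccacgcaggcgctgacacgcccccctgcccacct
Acp5: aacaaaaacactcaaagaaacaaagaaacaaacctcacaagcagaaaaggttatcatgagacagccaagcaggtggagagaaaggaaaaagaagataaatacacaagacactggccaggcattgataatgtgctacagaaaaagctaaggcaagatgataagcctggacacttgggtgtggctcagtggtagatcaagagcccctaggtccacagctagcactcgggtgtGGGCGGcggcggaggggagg
The Oard1 and Nfya stretch holds 61.7% G and C and no GC box, and the Acp5 stretch holds 48.0% and 1 GC box. RefSeq windows from 250 bases before to 50 after a start were at hand for 3 starts of Acp5 and 2 of Oard1. Each of these 5 windows held 1 or 2 GC boxes, and 35.7% of all 32851 such windows held at least 1. On both strands none of them held the E-box CACGTG, present in 7.2% of all windows, the AP-1 site TGANTCA, in 7.8%, the RUNX site TGTGGT, in 16.8%, or the ETS site CCGGAA, in 14.9%. Windows of Arrb2 and Arhgap9 were not analysed here.

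Library totals lay between 19715161 and 21627018 counts, and the 4 genes had 597 to 4308 counts in each. Aim2 itself was read in counts per 1000000 counts (CPM), scaled by TMM factors for library composition. It lay between 5.28 and 20.1 CPM in the Aim2-/- libraries and between 32.5 and 75.0 CPM in those of WT mice 3 and 4. The libraries labelled WT 1 had 21.5, 16.99, 11.5 and 5.57 CPM of Aim2 in order of time, against 15.7 to 20.1, 14.6 to 15.1, 8.18 to 11.4 and 5.28 to 7.15 CPM in the Aim2-/- libraries. At the first 3 times they lay just above that range and at 24 h within it, so their Aim2 level goes against their label. Results are therefore also given without that mouse.

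The libraries expressed T cell genes throughout. Cd4 lay between 407 and 1046 CPM and Cd3e between 400 and 593 CPM, while Cd8a reached 4.26 CPM at most. The 7 B cell genes reported here all had counts, and their sum was 352 to 752 CPM in WT and 4349.9 to 6093 CPM in Aim2-/- cells at 0 h. The libraries labelled WT 1 had the highest WT sums at 0, 3 and 6 h (752, 869 and 705 CPM), below the 2719 CPM or more of every Aim2-/- library at those times, so in this measure they lay with WT. Ighm, the heavy chain of IgM, made up nearly all of the sums, with 341 to 738 and 4332 to 6050 CPM at 0 h. The other 6 summed to 10.8 to 14.1 and 17.5 to 43.0 CPM. The 10 myeloid genes summed to 62.4 to 87.6 CPM in WT and 200 to 595 CPM in Aim2-/- cells at 0 h, and to 18.3 to 30.9 and 40.0 to 253 CPM at 24 h. Erythroid sums (5 genes) were 7.10 to 69.1 and 19.9 to 319 CPM, and basophil and mast cell sums (4 genes) 7.05 to 9.82 and 51.7 to 99.4 CPM, at 0 h. At 0 h the B cell, myeloid, and basophil and mast cell sums did not overlap between the genotypes, while the erythroid sums did. The sums of the CD4 T cell, CD8 T cell and natural killer cell lists overlapped as well. Values from fits that also held scores of the marker lists as terms are given below. Beyond these fits the part of such cells in the results was not tested. In bulk samples fewer cells of a type and less RNA per cell cannot be told apart.

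Arrb2 fell on stimulation, reached its lowest level in WT cells at 6 h, and had risen again by 24 h. At 0 h it stood at 179.8, 198 and 181 CPM in WT mice 1, 3 and 4 and at 144, 160.6 and 147 CPM in Aim2-/- mice 1, 2 and 4. The Aim2-/- libraries all lay below the WT ones, as did those of 14.4% of all genes at 0 h.
At 3 h the WT libraries had 120.6, 110.4 and 112 CPM, and the Aim2-/- libraries had 121, 118 and 106 CPM. The groups now overlapped. At 6 h WT cells had dropped to 89.6, 90.5 and 84.9 CPM, whereas Aim2-/- cells held 133, 111 and 114 CPM. Every Aim2-/- value exceeded every WT value, as in 18.6% of all genes at 6 h; both shares are given without a reading, since these libraries chose the genes. At 24 h the levels were 139.9, 138 and 135 CPM in WT and 162, 149 and 157 CPM in Aim2-/- cells. The groups again did not overlap, with the Aim2-/- libraries above, as in 11.1% of all genes.
Ordered by mean, Arrb2 was highest in WT cells at 0 h (186 ± 10.3 CPM, SD, n = 3). Aim2-/- cells at 24 h (156 ± 6.64) and at 0 h (151 ± 8.85) followed and overlapped each other, then WT cells at 24 h (138 ± 2.65). Aim2-/- cells at 6 h (119.6 ± 11.9) and 3 h (115 ± 7.95) and WT cells at 3 h (114 ± 5.56) formed a run of overlapping neighbours. WT cells at 6 h (88.3 ± 3.02) stood alone at the bottom.

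Arhgap9 had a similar course with a fuller return. Its WT levels at 0 h were 175, 223 and 201 CPM, against 139, 150.3 and 147 CPM in Aim2-/- cells, again without overlap. After 3 h they were 107, 104 and 105 CPM in WT and 115, 104 and 89.1 CPM in Aim2-/- cells, the WT values lying inside the Aim2-/- range. The 6 h libraries had 94.5, 81.9 and 84.5 CPM in WT and 116, 103 and 104 CPM in Aim2-/- cells, with no overlap. By 24 h the WT libraries were back at 177, 164 and 175 CPM and the Aim2-/- libraries at 168, 178 and 185 CPM, and the groups overlapped.
The highest mean was that of WT cells at 0 h (199 ± 23.9 CPM, SD, n = 3), whose range met those of Aim2-/- cells at 24 h (177 ± 8.62) and, through it, WT cells at 24 h (172 ± 7.02). Aim2-/- cells at 0 h (145 ± 5.88) stood apart below them. The remaining groups, Aim2-/- at 6 h (108 ± 7.30), WT at 3 h (105 ± 1.51), Aim2-/- at 3 h (103 ± 13.2) and WT at 6 h (87.0 ± 6.64), each overlapped the next in order.

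Acp5 fell and did not return. At 0 h it stood at 93.4, 134 and 119 CPM in WT and 77.5, 104 and 103 CPM in Aim2-/- cells, and the library labelled WT 1 lay inside the Aim2-/- range. At 3 h the 6 libraries were close together, at 52.9, 55.1 and 53.5 CPM in WT and 52.9, 50.7 and 47.3 CPM in Aim2-/- cells. At 6 h WT cells had 31.5, 29.2 and 31.5 CPM and Aim2-/- cells 52.6, 47.5 and 44.3 CPM. Aim2-/- cells were thus still near their 3 h level while WT cells were below it. At 24 h WT libraries held 32.8, 33.3 and 34.1 CPM and Aim2-/- libraries 42.0, 38.0 and 41.5 CPM, the latter all higher.
In order of the means, both genotypes at 0 h were highest (115 ± 20.5 in WT and 95.03 ± 15.2 CPM in Aim2-/-, SD, n = 3) and overlapped. WT and Aim2-/- cells at 3 h (53.8 ± 1.12 and 50.3 ± 2.82) and Aim2-/- cells at 6 h (48.1 ± 4.17) came next, with overlap between neighbours. Aim2-/- cells at 24 h (40.5 ± 2.18), WT cells at 24 h (33.4 ± 0.659) and WT cells at 6 h (30.7 ± 1.33) followed, separated from each other.

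Oard1 was higher at 24 h than at 0 h in both genotypes. In Aim2-/- cells it was already higher at 6 h, which is a description, since the 0 h and 6 h libraries chose the gene. At 0 h it stood at 33.7, 37.7 and 34.0 CPM in WT and 31.2, 29.4 and 31.4 CPM in Aim2-/- cells, all Aim2-/- values being lower. At 3 h the levels were 34.0, 32.0 and 33.3 CPM in WT and 38.2, 32.3 and 34.0 CPM in Aim2-/- cells, with overlap. At 6 h WT cells had 28.2, 30.7 and 30.5 CPM and Aim2-/- cells 42.5, 38.7 and 46.7 CPM, so only the latter were above their 0 h level. At 24 h WT libraries reached 54.6, 53.3 and 54.1 CPM and Aim2-/- libraries 64.3, 56.0 and 65.9 CPM, without overlap.
Its order ran from Aim2-/- at 24 h (62.1 ± 5.35 CPM, SD, n = 3) over WT at 24 h (54.0 ± 0.639) to Aim2-/- at 6 h (42.6 ± 4.00), each apart from the next. WT at 0 h (35.1 ± 2.27), Aim2-/- at 3 h (34.8 ± 3.03) and WT at 3 h (33.1 ± 1.02) overlapped as neighbours. Aim2-/- at 0 h (30.7 ± 1.11) and WT at 6 h (29.8 ± 1.39) overlapped at the bottom.
Nfya, on the other side of the shared stretch, was lowest at 6 h in both genotypes. Its group means were 117, 105, 94.7 and 121 CPM in WT and 114, 105, 90.6 and 107 CPM in Aim2-/- cells at 0, 3, 6 and 24 h. At 6 h its genotype difference was -0.06 on the log2 scale (SE 0.07), where that of Oard1 was 0.52 (SE 0.09). In WT cells both genes were thus lower at 6 h than at 0 h, and in Aim2-/- cells Nfya was lower and Oard1 higher.

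**Figure D1:**
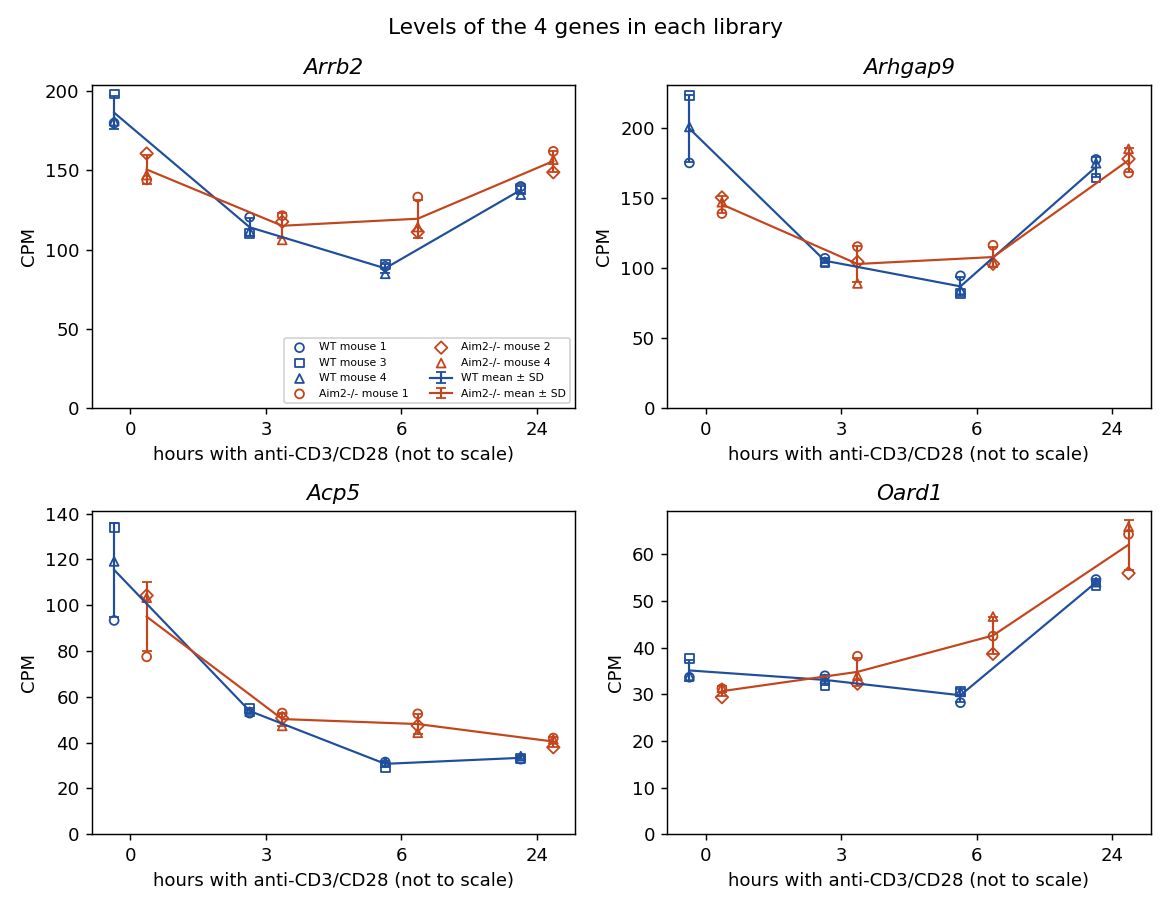
CPM of each gene (y axis, TMM-scaled, starting at 0) in the 24 libraries at 0, 3, 6 and 24 h (x axis, categories), WT in blue and Aim2-/- in orange; symbols are mice, lines join the means of 3 and bars are SD. At 6 h the Aim2-/- libraries lie above all WT libraries for each gene, at 3 h the genotypes overlap, and at 0 h the Aim2-/- means are lower.

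At 6 h and 0 h the differences between the genotypes are the measured values the genes were chosen by, and they are given as a description. On the log2 scale, with Aim2-/- over WT, the fitted differences at 0 h were -0.31 (SE 0.08) for Arrb2, -0.46 (SE 0.09) for Arhgap9, -0.28 (SE 0.11) for Acp5 and -0.19 (SE 0.09) for Oard1. At 6 h they were 0.44 (SE 0.08), 0.31 (SE 0.09), 0.65 (SE 0.12) and 0.52 (SE 0.09) in the same order. The difference in the response, 6 h minus 0 h, was thus 0.74 for Arrb2, 0.77 for Arhgap9, 0.93 for Acp5 and 0.71 for Oard1, and each takes the 0 h difference from that at 6 h. The 0 h value of Acp5 rested on single libraries: it was -0.45 without that of the mouse labelled WT 1, -0.18 without that of Aim2-/- mouse 1 and -0.15 without all libraries of Aim2-/- mouse 1. Without mouse WT 1 the differences in the response became 0.78, 0.91, 1.07 and 0.70.
The adjusted p by which they were chosen was 0.0135 for Arrb2 and 0.0441 for the other three, close to the limit of 0.05. Just outside it, at 0.0509, were Dctd (-1.52), D030028A08Rik (-1.67), Ublcp1 (0.86) and Tmem134 (0.66), then Zfyve9 (-5.46) at 0.0520. Some of the marker sums did not overlap between the genotypes, as given above. In a fit that also held scores of the marker lists as terms the response differences were 0.75, 0.78, 0.96 and 0.73.

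At 3 h no difference between the genotypes was detected. The 3 h libraries were not compared in the choice, but they come from the same mice. They also shared the fit behind it, with its filter, scaling and estimate of the spread. The fitted differences were 0.01 (SE 0.08) for Arrb2, -0.03 (SE 0.09) for Arhgap9, -0.10 (SE 0.11) for Acp5 and 0.07 (SE 0.09) for Oard1. In edgeR's quasi-likelihood test, two-sided and with Benjamini-Hochberg adjustment over all genes tested, the adjusted p was 0.956, 0.897, 0.711 and 0.711. None was called at an adjusted p under 0.05, against 0.294% of all genes. None had an unadjusted p under 0.05 either, which 15.3% of genes had, and DESeq2 and limma-voom called 0 of the 4. All 4 genes overlapped between the genotypes at 3 h, where 7.8% of genes lay wholly above and 7.31% wholly below WT. All 4 values are smaller than their SE and are given no direction.

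At 24 h none of the 4 differences passed the adjustment. That of Arhgap9 is smaller than its SE and is given no direction, and the median difference of all genes was 0.006. The 4 differences were 0.18 (SE 0.08) for Arrb2, 0.04 (SE 0.09) for Arhgap9, 0.28 (SE 0.12) for Acp5 and 0.20 (SE 0.08) for Oard1. Their adjusted p from edgeR's test was 0.192, 0.847, 0.186 and 0.191. Against a background of 0.666% of all genes, 0 of the 4 were called, also by DESeq2 and by limma-voom. Arrb2, Acp5 and Oard1 had an unadjusted p under 0.05, as did 20.5% of genes, and their Aim2-/- libraries all lay above WT, the 11.1% case above.
For Oard1 the call changed with 1 animal. Without the 24 h library of Aim2-/- mouse 2, the lowest of its group, its difference was 0.27 and the adjusted p from edgeR's test 0.0467, and without all libraries of that mouse the adjusted p was 0.0282. Without mouse WT 1 the 24 h differences were 0.19, 0.06, 0.27 and 0.21, and none was called. With the marker scores as terms the differences were 0.12, -0.01, 0.20 and 0.05 for Arrb2, Arhgap9, Acp5 and Oard1, so those of Arrb2 and Oard1 were smaller by over 1.5 times, and none was called.

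**Figure D2:**
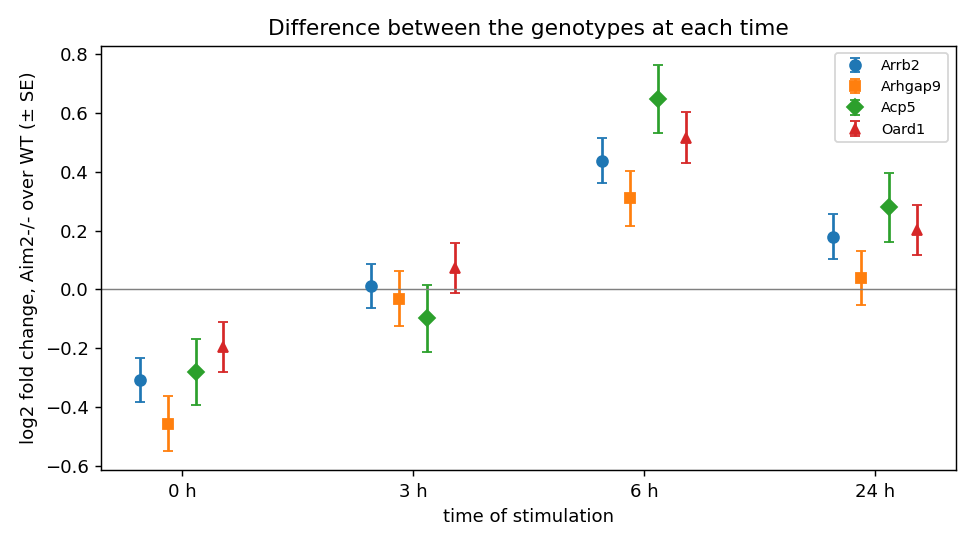
Fitted log2 fold change of Aim2-/- over WT (y axis) for the 4 genes at 0, 3, 6 and 24 h (x axis), with bars of 1 SE; 3 libraries a group. The values are negative at 0 h, from -0.10 to 0.07 at 3 h, from 0.31 to 0.65 at 6 h and from 0.04 to 0.28 at 24 h.

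Each mouse was sampled at every time, so the steps can be followed within animals. From 0 h to 3 h Arrb2, Arhgap9 and Acp5 fell in every mouse of both genotypes. The medians over 3 mice, on the scale of log2 CPM, were -0.70 in WT and -0.45 in Aim2-/- mice for Arrb2, -0.94 and -0.53 for Arhgap9, and -1.15 and -1.04 for Acp5. From 3 h to 6 h all 4 genes went down in each of the 3 WT mice, by medians of -0.40, -0.31, -0.76 and -0.13 for Arrb2, Arhgap9, Acp5 and Oard1. In Aim2-/- mice that second step was small for Arrb2 (-0.08 to 0.13), Arhgap9 (-0.02 to 0.23) and Acp5 (-0.09 to -0.01). Oard1 rose in it, by 0.15 to 0.46.
From 6 h to 24 h Arrb2, Arhgap9 and Oard1 rose in all 6 mice. The WT medians, 0.64, 1.00 and 0.82, exceeded the Aim2-/- medians, 0.42, 0.79 and 0.53. The steps, also those from 0 h to 3 h, hold 0 h or 6 h libraries, which chose the genes, and are a description.

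**Figure D3:**
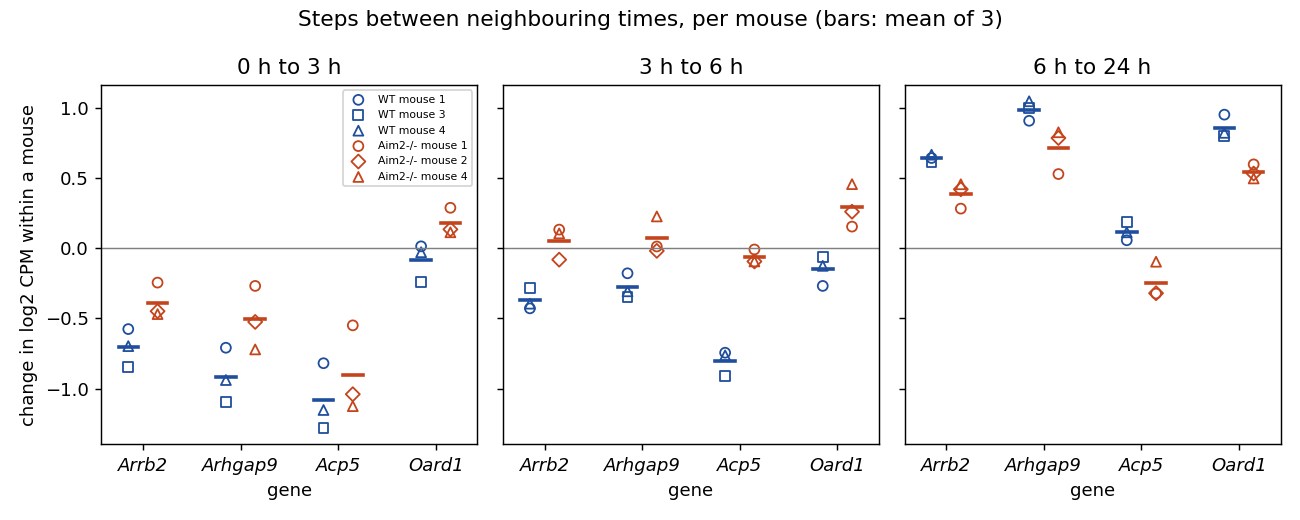
Change in log2 CPM within each mouse (y axis) from 0 h to 3 h, 3 h to 6 h and 6 h to 24 h for the 4 genes (x axis), WT in blue and Aim2-/- in orange; symbols are mice and short bars the mean of 3. In the middle panel all WT points lie below 0, and the Aim2-/- points lie between -0.09 and 0.46.

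The change from 3 h to 24 h could be compared between genotypes in libraries that were not compared in the choice, though they share its mice and its fit. This change differed by 0.17 (SE 0.11) for Arrb2, 0.07 (SE 0.13) for Arhgap9, 0.38 (SE 0.16) for Acp5 and 0.13 (SE 0.12) for Oard1. Except for Arhgap9, whose value is smaller than its SE, it was more upward or less downward in Aim2-/- cells. The adjusted p in edgeR's test was 0.705, 0.914, 0.560 and 0.813. No gene of all 15325 was called, a background of 0%, while 1238 genes, 8.08%, had an unadjusted p under 0.05, Acp5 among them. DESeq2 called 16 genes and limma-voom 0, none of them one of the 4. A fit with mouse as a block called 80 genes, again none of the 4.

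The time course itself, averaged over the genotypes so that their difference has no weight, was tested for each gene. At 3 h Arrb2 fell by 0.55 (SE 0.05), Arhgap9 fell by 0.71 (SE 0.07) and Acp5 fell by 1.01 (SE 0.08) on the log2 scale, with adjusted p in edgeR's test of 5.0e-08, 2.3e-08 and 2.9e-09. For Oard1 the value was 0.05 (SE 0.06, adjusted p = 0.555). Of all genes 45.5% were called at 3 h, 21.9% lower and 23.6% higher, so a fall was common. At 24 h Acp5 was at a log2 change of -1.51 (SE 0.08, adjusted p = 3.4e-13) from 0 h and Oard1 at 0.82 (SE 0.06, adjusted p = 5.9e-11). Arrb2 was still lower by a small amount, -0.19 (SE 0.05, adjusted p = 0.00254), a call lost with the marker scores as terms (-0.11, adjusted p = 0.404). The value of Arhgap9 was 0.04 (SE 0.07, adjusted p = 0.629), smaller than its SE. The mean joins genotypes with unlike values here. As a description, the fitted 24 h change of Arrb2 was -0.44 (SE 0.08) in WT and 0.05 (SE 0.08) in Aim2-/- cells. For Arhgap9 it was -0.21 (SE 0.09) and 0.28 (SE 0.09). These changes hold the 0 h libraries, which helped to choose the genes, so their difference between the genotypes is given without a reading. At 24 h 79.4% of all genes were called, 40.4% higher and 38.9% lower.
Between 3 h and 24 h all 4 genes changed, where 75.9% of genes did. Arrb2 rose by 0.35 (SE 0.05, adjusted p = 4.7e-06), Arhgap9 by 0.74 (SE 0.07, adjusted p = 1.5e-09) and Oard1 by 0.77 (SE 0.06, adjusted p = 2.4e-10), and Acp5 fell by 0.50 (SE 0.08, adjusted p = 1.1e-05). Averaged over the genotypes, Arrb2 and Arhgap9 thus fell by 3 h and rose by 24 h, Acp5 fell in both intervals and Oard1 rose in the later one. The return of Arrb2 stayed below its 0 h level in all 3 WT mice, and in the Aim2-/- mice it lay between -0.11 and 0.17 of it on the log2 scale. The 0 h libraries helped to choose the genes, so that contrast of the genotypes is a description. Without mouse WT 1 each of these calls stayed, with values at 24 h of -0.21, -0.02, -1.57 and 0.80 against 0 h.

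Relatives of the 4 genes were counted against the background of all genes, of which 38.9% were lower and 40.4% higher at 24 h, and 21.9% lower and 23.6% higher at 3 h. The arrestins, the related alpha-arrestins and the kinases that prepare receptors for arrestins (12 genes tested beside Arrb2) were lower in 8 and higher in 1 at 24 h, with a median of -0.68 where the median of all genes was -0.00. Arrb1, beta-arrestin 1 and the closest relative of Arrb2, was at -2.22 (SE 0.12), and its mean in WT cells was 151 CPM at 0 h, 73.2 CPM at 3 h and 31.6 CPM at 24 h. The Aim2-/- means were 152, 69.9 and 33.5 CPM, so the Arrb1 means were lower at 24 h than at 3 h, where those of Arrb2 were higher. The largest falls were those of Txnip (-3.48), an inhibitor of thioredoxin and glucose uptake, Arrdc3 (-3.13) and Arrdc4 (-2.85). Sag, the visual arrestin, was the gene that rose (0.71), from levels of at most 5.29 CPM. At 3 h 6 of the 12 were lower and 1 higher.
Of 35 tested genes for small GTPases of the Rac, Cdc42 and related groups and their activating proteins beside Arhgap9, 21 were lower and 7 higher at 24 h (38.9% and 40.4% of all genes), with a median of -0.58. The relatives closest to Arhgap9 were all lower, Arhgap12 by a log2 change of -1.56, Arhgap15 of -1.16 and Arhgap27 of -1.46. Arhgap31 (-3.47) and Rhob (-3.31) fell furthest, followed by Arhgap45 (-2.18). Arhgap19 (3.13) and Arhgap11a (2.38), both expressed in dividing cells, rose, as did Arhgap24 (1.97), which reached 1.52 CPM at most. At 3 h 14 were lower and 3 higher.

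The acid phosphatase list, which also held Spp1 for osteopontin, the protein substrate of the Acp5 enzyme, had 5 tested genes beside Acp5. At 24 h Acp3 (-2.50) and Acp6 (-0.33) were lower and Acp1, a cytosolic tyrosine phosphatase, was higher (2.11). Acp2, the lysosomal enzyme, was at -0.00 (adjusted p = 0.979) and Spp1 at -0.22 (adjusted p = 0.682). The list median was -0.22.
Among 9 tested genes beside Oard1 whose products remove or break down ADP-ribose, 6 were higher and 2 lower at 24 h (40.4% and 38.9% of all genes), with a median of 0.77. Macrod1, a macrodomain hydrolase like Oard1, was at 1.26 (SE 0.13). Nudt5, which hydrolyses free ADP-ribose, rose most (3.39), followed by Nudt9 (1.45) and Macrod2 (1.33), the last at 2.98 CPM or less. Nudt16 (-0.69) and Gdap2 (-0.32) were lower. Oard1, at 0.82, lay near the middle of this list.
The writers of the modification were 14 PARP and tankyrase genes. At 3 h 9 were higher and 2 lower (23.6% and 21.9% of all genes; median 0.30), led by Parp9 (1.92), Parp14 (1.91) and Parp12 (1.29), and the lower pair were Tnks (-0.55) and Tnks2 (-0.43). At 24 h 9 were lower and 3 higher (38.9% and 40.4% of all genes; median -0.54). Parp8 (-2.62), Parp4 (-1.80) and Parp6 (-1.44) fell most, while Parp1 (1.64), the main PARP of the DNA damage response, Parp2 (1.04) and Parp11 (0.85) were higher.
None of these 75 relatives was called between the genotypes at 3 h or at 24 h in edgeR's test. Of all genes 0.294% and 0.666% were, so the count is given without a reading. The 24 h counts of the lists were the same under RLE scaling and within 1 gene with library totals alone, and at 3 h they differed by at most 2 genes in a direction.

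**Figure D4:**
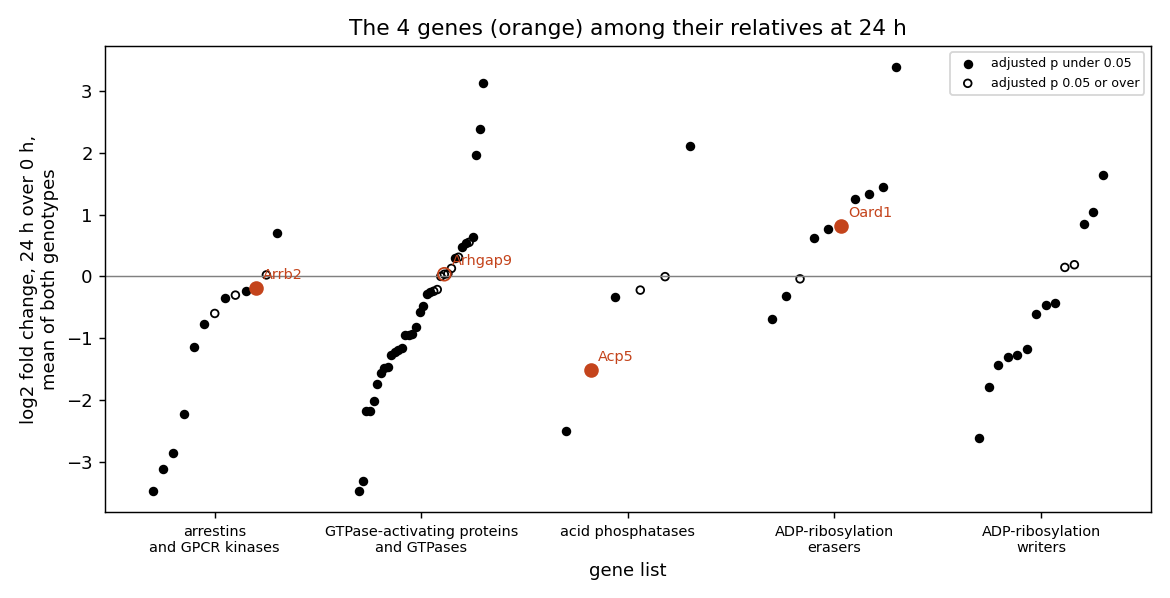
Log2 fold change from 0 h to 24 h, mean of both genotypes (y axis), of each tested gene in 5 lists (x axis, genes in order of value), filled where the adjusted p is under 0.05; the 4 genes are in orange. Arrb2 (-0.19) and Arhgap9 (0.04) lie above most of their lists, Acp5 (-1.51) is the second lowest of its list and Oard1 (0.82) is in the middle of its own.

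The levels of Arrb2 and Arhgap9 ran in parallel over the 24 libraries (Pearson r = 0.927, Spearman rank correlation 0.931, log2 CPM). This is a description, since the libraries share mice, times and scaling and both genes were chosen for 1 pattern. Arrb2 and Acp5 had r = 0.669 and Arhgap9 and Oard1 r = 0.533. Arhgap9 and Acp5 had r = 0.434, Arrb2 and Oard1 r = 0.368, and Acp5 and Oard1 r = -0.381. The Spearman rank correlation of Acp5 and Oard1 was -0.239.
Among 8672 genes with a mean of at least 10 CPM, those most like Arrb2 were Cenpa (r = 0.946), the centromeric histone, Camk2g (0.929), Arhgap9 (0.927), Auh (0.916) and Rcbtb2 (0.915). Those most like Arhgap9 were Zmynd8 (0.941), Lin9 (0.939), Galnt12 (0.939), Dck (0.935), the deoxycytidine kinase, and Rpa1 (0.934), which binds single-stranded DNA. Acp5 was closest to Arl5c (0.973), Tbc1d10c (0.973), Ldb1 (0.964), Ranbp10 (0.963) and Atp6v1d (0.963), a subunit of the proton pump that acidifies lysosomes. Oard1 was closest to Ndufb10 (0.963), a subunit of respiratory complex I, Htra2 (0.962), a mitochondrial protease, Akip1 (0.952), Mrpl22 (0.952) and Fdx1 (0.952). These orders are by Pearson r and differ by Spearman rank correlation. For Oard1, Htra2 then came at place 2 (0.886), Ndufb10 at 31 (0.824), Fdx1 at 50 (0.806) and Mrpl22 at 130 (0.769). For Acp5, Ranbp10 came at place 85 (0.897).

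The genes next to the 4 on the chromosome were compared at 24 h with 0 h. Pelp1 and Med11 beside Arrb2 were higher at 24 h, at 1.55 and 0.50, as were Mars (2.27), the gene of methionyl-tRNA synthetase, beside Arhgap9 and Elof1 (1.91) and Pigyl (1.21) beside Acp5. Apobec2, on the far side of Oard1, was lower (-1.74), and Nfya was at -0.02 (SE 0.05, adjusted p = 0.666). Gli1, which overlaps Arhgap9, was at -2.18 (SE 0.70) on very few counts. Inhbe, the other neighbour of Arhgap9, had at most 1 count in a library. None of the tested neighbours was called between the genotypes at 3 h or at 24 h, where Mars had the smallest adjusted p, 0.0872 in edgeR's test. At 6 h the same test called Elof1 (0.32, adjusted p = 0.0306) and Pigyl (0.62, adjusted p = 0.0339) beside Acp5. It also called Apobec2 (1.19, adjusted p = 0.0428) beside Oard1, and all of these were higher in Aim2-/- cells. Differences at 6 h were common: 5225 of the 15325 genes tested had an unadjusted p under 0.05 in edgeR's test. The calls among the neighbours are therefore given without a reading. Pelp1 (-0.40), Mars (-0.30), Nfya (-0.06), Med11 (0.15) and Gli1 (1.08) were not called at 6 h. Elof1 stood at 0.32 at 0 h too, and no neighbour was called for the difference in the 6 h response.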

How the data were processed

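Per the labels and the general methods of the study, whose own RNA sequencing is of related experiments, the authors aligned reads of stranded TruSeq mRNA libraries with STAR to GRCm38 and deposited raw counts per Ensembl gene; the versions and the strand setting are not given in the sources used here. The labels also name DESeq2 and edgeR. From the deposited counts of 24 libraries, edgeR 4.0.16 in R 4.3.3 was fitted with 1 mean per group, TMM factors and filterByExpr (minimum count 10), which kept 15325 of 31367 genes with a count, and the quasi-likelihood F test was two-sided. The study's methods name limma-voom, used here (limma 3.58.1) as an alternative, as was DESeq2 1.42.0. P-values were adjusted by Benjamini-Hochberg within a comparison, with a threshold of 0.05. Log2 CPM has a prior count of 2. The common dispersion was 0.0346. The fit was tested on simulated data.

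The 4 genes and the gene lists were chosen with earlier results of these data known. Besides the 4 genes and Aim2, the text names the 3 largest called changes in each direction per list, the closest relatives, the 5 genes most correlated with each, chromosomal neighbours and the 5 genes next in order of p. A gene of the B cell marker list is not reported here. The symbols came from GENCODE (54409 of 54446 identifiers matched), the sequences from RefSeq on GRCm38.p6.

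Libraries of a mouse are paired per the labels. Deviations from the group means correlated at 0.139 to 0.567 in 36 pairs of libraries from the same mouse and at -0.432 to 0.0742 in 72 pairs from different mice. The model used holds no term for mouse, so its P-values take the libraries of a mouse as independent. They rest on 3 mice per group.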

Additional observations from a re-analysis of the deposited data

Results flagged for a closer look

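In 3 steps the 3 WT mice all moved one way and the 3 Aim2-/- mice all moved the other way. Acp5 rose slightly from 6 h to 24 h in WT mice, with a median log2 change of 0.11, and went down in Aim2-/- mice, with a median of -0.32. Oard1 went down from 0 h to 6 h in WT mice (median -0.25) and up in Aim2-/- mice (median 0.44), and from 3 h to 6 h the medians were -0.13 and 0.26. These differences were not tested, because the 6 h libraries were used to choose the genes. The share of all genes with such steps was not counted, so they are given without a reading.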

How the results depend on the processing

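Of 216 values of the 4 genes under settings other than leaving out samples, 205 kept their direction and their side of the threshold. The fit with mouse number as a replicate block, where the numbers are shared by different mice of the genotypes and their pairs correlated at only -0.165 to 0.268, called 1 of the 4 genes at 24 h (Oard1, 0.26, adjusted p = 0.0194 from edgeR's test), against 0 in the model used, and with 1 library or mouse left out the count was 0 to 1. That block moved the counts over all genes from 45 to 2324 at 3 h and from 102 to 3235 at 24 h. Fits with each mouse as a block changed no call among the 4 genes; their adjusted p for the genotype difference in the change from 3 h to 24 h ran from 0.259 to 0.824.

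The sign of values near 0 changed. For Arrb2 at 3 h it was -0.00206 with RLE factors, -0.00194 with DESeq2 and -0.0430 with marker scores; for Arhgap9 0.0022 at 3 h with library totals and -0.0064 at 24 h with marker scores. The mean response of Arhgap9 at 24 h was -0.026 with RLE factors and with DESeq2, -0.00697 without a filter and -0.00315 on the compared libraries alone. With 1 library or mouse left out the ranges were -0.040 to 0.067 for Arrb2 at 3 h, -0.12 to 0.063 for Arhgap9 at 3 h, -0.051 to 0.054 for its mean response and -0.057 to 0.20 for its difference in change. The cause was not tested. Over all genes, the genotype counts of 45 at 3 h and 102 at 24 h were 307 and 787 with DESeq2, 775 and 962 without a filter, and 2 and 0 on the compared libraries alone. At 24 h limma-voom called 5 and the fit with marker scores 13, and with 1 library or mouse left out the counts were 1 (without the 3 h library of WT mouse 3) to 1143 (without Aim2-/- mouse 2) at 3 h and 0 (without the 24 h library of WT mouse 3) to 2702 (without Aim2-/- mouse 2) at 24 h. The genotype difference in the change from 3 h to 24 h, with 0 calls over all genes, had 16 with DESeq2, 30 without a filter and 80 with each mouse as a block. Library totals shifted the median of all genes by 0.11 at 3 h and -0.10 from 3 h to 24 h. Depth limited none of the levels, and 3 mice a group limit the genotype tests.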
